A study of Mus musculus with 15 samples.

Results

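The comparison set organoids from liver metastases of the third transplantation round (Met3) against organoids from primary tumours of the same round (Primary3). Its members are 6 of the 15 RNA sequencing libraries of the study, 3 in each group, chosen by their titles, and the comparison ran across all genes. Both groups were colon cancer organoids of the AKP genotype, carried in C57Bl6 recipient mice. The labels do not spell out the alleles behind the AKP name. Organoids had been grown from liver metastases and placed back into the colons of mice with an intact immune system, and primary-tumour organoids had gone through the same steps as controls, for 3 rounds. No group was transplanted without the AKP genotype, and the labels do not say whether the 3 libraries of a group came from separate mice, lines or cultures, so the p-values below measure the spread between these libraries.

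The colon epithelium is renewed from crypt stem cells that depend on Wnt signals, and its absorptive and secretory daughters are kept in place by intestinal transcription factors such as CDX2 and the GATA factors. GATA4 and GATA6 bind the same short DNA motif: GATA6 is the GATA factor of the normal colon, whereas GATA4 belongs to the proximal intestine. Liver metastasis is the main route of spread of colorectal cancer, and organoids keep tumour epithelium growing in culture without the stroma that surrounds it in the animal.

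The Met3 libraries held 18584990 to 19531701 counts and the Primary3 libraries 14122203 to 17502844. Within a group, the log2 CPM (counts scaled to the total of the library) of 2 libraries correlated across genes with r of 0.9725 to 0.9739 in Met3 and 0.9774 to 0.9854 in Primary3. A nuclear ribosomal RNA gene took 3.38% to 4.09% of counts in Met3, and 3.53%, 6.59% and 7.03% in Primary3 replicates 1, 2 and 3. All 7 epithelial markers passed the filter on low counts, with summed levels of 6438 to 8308 CPM in Met3 and 3565 to 4429 CPM in Primary3. Of the 7, 1 was called higher (Krt8, given below) and 6 were not called, so the sums do not describe each marker. Summed hepatocyte markers reached at most 0.808 CPM, fibroblast markers 0.766 CPM, endothelial markers 0.471 CPM and erythroid markers 0.0643 CPM in any of the 6 libraries. Among the 7 leukocyte markers, Adgre1, C1qa and Lyz2 had 0 counts in all 6 libraries. The other cell type marker that differed was Csf1r, the receptor of the macrophage growth factor, at 0.215, 0.346 and 0 CPM in Met3 against 4.38, 7.90 and 5.83 CPM in Primary3 (adjusted p = 0.00567). Without Csf1r the leukocyte markers summed to at most 0.269 CPM.

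Of 14925 genes tested, 2850 (19.1%) differed between Met3 and Primary3 at an adjusted p below 0.05 in edgeR's quasi-likelihood test, the threshold used for every call below. Of these, 1212 (8.12% of genes tested) were higher in Met3 and 1638 (11.0%) lower. At least a 2-fold change was fitted for 1552 of them (10.4%), 590 higher and 962 lower, and at least an 8-fold change for 178 higher and 429 lower. The median fitted change was 0.97 on the log2 scale among the genes that rose and -1.36 among those that fell, against 0.00029 over all genes tested. The 3 Met3 libraries did not overlap the 3 Primary3 libraries for 6619 genes (44.3%), among them 2819 of the called genes. With 1 of the 6 libraries left out, between 1372 (without Primary3 replicate 3) and 2319 genes (without Met3 replicate 3) were called. Without Met3 replicate 1 there were 1415, without Met3 replicate 2 there were 1785, and without Primary3 replicate 2 there were 1614. In each of these 6 fits 1036 genes (36.4% of the 2850) were called, and no called gene changed sign. With the ribosomal RNA share as a covariate 1540 genes were called, and the part of that share in the other calls was not tested. Less RNA per cell and fewer cells of a kind cannot be told apart in bulk libraries.

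**Figure D1:**
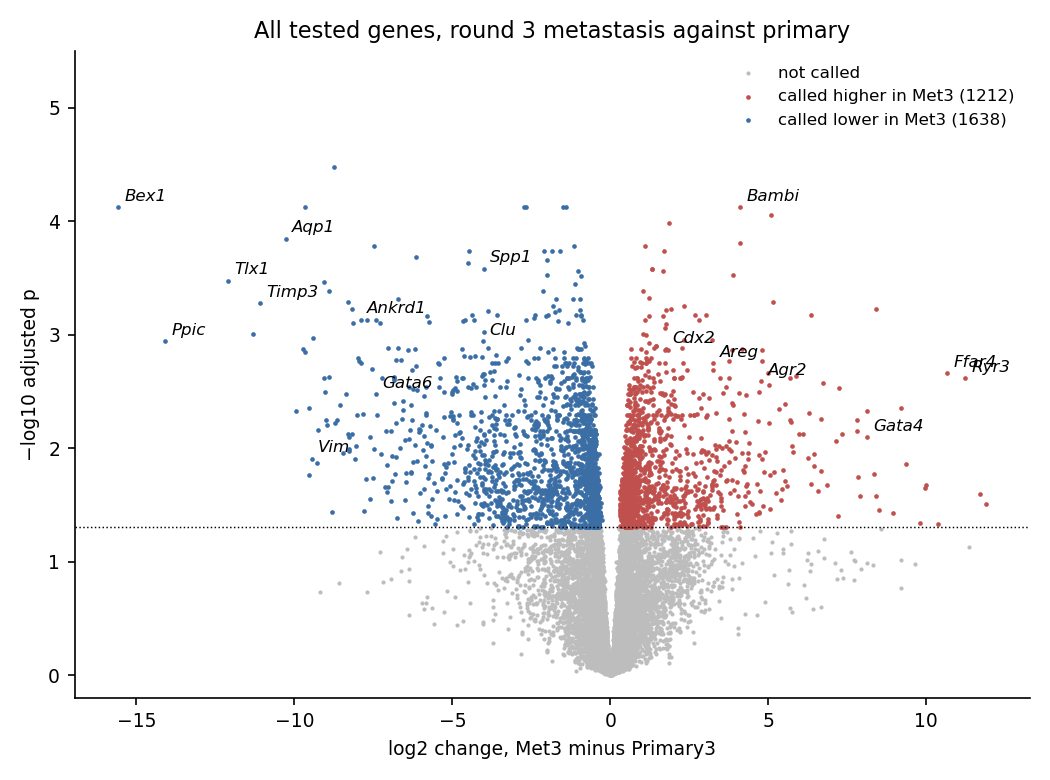
Each point is 1 of 14925 tested genes, with the fitted log2 change of Met3 over Primary3 on the horizontal axis and −log10 of the adjusted p on the vertical axis. Red points rose (1212), blue points fell (1638), grey points were not called, and the dotted line marks an adjusted p of 0.05. The blue points reach further from 0 than the red ones, with Bex1 and Ppic at the far left. Changes fitted for genes at 0 counts on 1 side depend on the prior count and are no measured fold.

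Gata6 and Gata4 moved in opposite directions. Gata6 (chr18:11052064-11085635, mm10 coordinates from GENCODE, as for all genes below) was at 0.108, 0 and 0 CPM in Met3 replicates 1, 2 and 3, and at 7.68, 4.63 and 9.72 CPM in Primary3. The few Gata6 counts left in Met3 give a ratio of 204 in favour of Primary3, with a 95% exact binomial interval of 56.0 to 1688 that covers counting error only (adjusted p = 0.00333). Gata4 (chr14:63198922-63271692) was at 22.2, 10.3 and 8.86 CPM in Met3 and at 0.135, 0 and 0 CPM in Primary3. Its ratio was 327 in favour of Met3 (95% exact binomial interval 90.2 to 2706, adjusted p = 0.00805). Every Met3 library thus carried Gata4 transcripts with next to no Gata6, and every Primary3 library the reverse. Both calls held in every alternative fit, with adjusted p of at most 0.0430 for Gata6 and 0.0428 for Gata4.

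Apc, the scaffold of the complex that destroys beta-catenin, was at 48.0, 48.1 and 46.0 CPM in Met3 and at 77.0, 65.1 and 64.3 CPM in Primary3. The fall of Apc was 0.54 on the log2 scale (SE 0.13, adjusted p = 0.0160), and the call ended without Met3 replicate 1 (adjusted p = 0.0640), without Primary3 replicate 1 (0.0602) and with the ribosomal RNA covariate (0.0505). Trp53, at 5.604 to 7.44 against 7.004 to 10.2 CPM, was not called (adjusted p = 0.208). The counts do not show which alleles the transcripts came from.

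The 12 strongest falls and rises were picked by fitted change, which for genes at 0 counts in a group gives no measured order. Among the falls, Bex1 (chrX:136213972-136215513), a small brain-expressed X-linked gene, had 0 counts in all 3 Met3 libraries and 398, 313 and 318 CPM in Primary3. Set against a floor of 3 counts over the Met3 group, the fall of Bex1 was at least 6251-fold (adjusted p = 7.54e-05). The gene Ppic (chr18:53406332-53418115), which encodes the secretory-pathway isomerase cyclophilin C, was at 0, 0.115 and 0 CPM in Met3 and at 761, 574 and 945 CPM in Primary3, a ratio of 21030 in favour of Primary3 (95% exact binomial interval 5822 to 173700, adjusted p = 0.00114). Tlx1, a homeobox gene known for its role in spleen development, was at 0 in Met3 and at 32.2, 23.1 and 36.8 CPM in Primary3, at least 565-fold lower. Scara3, a scavenger receptor, was likewise at 0 against 17.7, 17.6 and 17.4 CPM, at least 322-fold lower. These 4 genes were on in every Primary3 library and at or near 0 in every Met3 library.

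Secreted and surface proteins made up much of the remainder of the 12 strongest falls. Timp3, an inhibitor of matrix metalloproteinases held in the extracellular matrix, was at 0, 0.346 and 0.157 CPM in Met3 and at 264, 409 and 445 CPM in Primary3 (log2 change -11.09, SE 1.33, adjusted p = 0.000531). Timp3 lies inside Syn3 on the opposite strand, and Syn3 was at 0 in Met3 and at 0.741, 6.36 and 5.71 CPM in Primary3, so some reads of the pair could be shared. Aqp1, a water channel, was at 0.269, 0.115 and 0.367 CPM in Met3 against 410, 224 and 336 CPM (log2 change -10.28, SE 0.97, adjusted p = 0.000143). Efemp1, the matrix protein fibulin-3, had 0 counts in Met3 and 6.74, 6.68 and 7.07 CPM in Primary3, at least 125-fold lower. Ggta1, which makes the alpha-gal sugar on cell surfaces, was at 0, 0.115 and 0 CPM against 25.8, 38.2 and 41.7 CPM (adjusted p = 7.54e-05). Layn, a hyaluronan receptor, was at 0, 0.0577 and 0 CPM against 6.27, 12.7 and 17.7 CPM. Serpinb9b, one of a family of similar protease inhibitors whose reads could be shared between copies, was at 0, 0 and 0.0524 CPM against 6.81, 14.7 and 18.1 CPM. Vim, the intermediate filament of mesenchymal cells, was at 0.108, 0.173 and 0 CPM in Met3, but its level in Primary3 ran from 7.39 CPM in replicate 2 to 39.8 in replicate 1 and 159 in replicate 3. The fall of Vim (log2 change -9.45, SE 2.22, adjusted p = 0.0124) was not called without Met3 replicate 1 (0.0537) or by limma-voom (0.154).

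The 12 strongest rises included Ryr3 (chr2:112631355-113217096), a calcium release channel of the endoplasmic reticulum. Ryr3 had 0 counts in Primary3 and 19.9, 27.9 and 2.41 CPM in Met3, at least 258-fold higher (adjusted p = 0.00244), with Met3 replicate 3 well below the other libraries of its group. Cacna2d1, an auxiliary subunit of voltage-gated calcium channels, was at 26.4, 9.75 and 16.4 CPM in Met3 and at 0, 0 and 0.648 CPM in Primary3 (log2 change 6.24, SE 1.46, adjusted p = 0.0123). The fatty acid receptor gene Ffar4 was at 56.9, 47.0 and 31.2 CPM in Met3 against 0, 0.0643 and 0 CPM, a ratio of 2125 (95% exact binomial interval 381 to 83980). The call of Ffar4 (adjusted p = 0.00217) did not hold in limma-voom (0.0679). Stk39, the kinase SPAK that controls chloride cotransporters, was at 13.0, 30.1 and 6.13 CPM against 0.0674, 0 and 0 CPM (adjusted p = 0.00446, and 0.201 in limma-voom). Clip4, a microtubule-binding protein, was at 22.6, 31.1 and 22.7 CPM against 0.0674, 0.193 and 0 CPM (adjusted p = 0.00475). Levels in Primary3 were thus near 0 for all 5 of these genes.

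Enzymes that add sugars to proteins stood among the rises as well. St8sia4, which builds polysialic acid, was at 24.5, 13.4 and 8.39 CPM in Met3 and at 0, 0 and 0.177 CPM in Primary3 (adjusted p = 0.00712, but 0.121 in limma-voom and 0.0577 with the ribosomal RNA covariate). Galntl6, a member of the enzyme family that starts mucin-type O-glycans, was at 16.9, 16.2 and 23.5 CPM against 0.270, 0.193 and 0.0589 CPM (log2 change 6.73, SE 1.13, adjusted p = 0.00269), and its call held in every alternative. Trp53i11, a p53-inducible gene, was at 50.3, 66.6 and 86.5 CPM against 1.08, 0.0643 and 0.295 CPM (adjusted p = 0.00864, with 0.134 in limma-voom and 0.0510 with the covariate). Tbx18, a developmental T-box factor, was at 8.95, 10.04 and 20.6 CPM against 0.0674, 0 and 0.353 CPM (adjusted p = 0.0143). The Tbx18 call ended without Primary3 replicate 1 (0.0548), without Primary3 replicate 2 (0.0559) and with the covariate (0.131). Upk1b, a uroplakin of the bladder lining, was at 43.0, 8.66 and 16.3 CPM against 0.0674, 0.129 and 0.353 CPM (adjusted p = 0.0212), and lost its call without Met3 replicate 1 (0.0616), without Primary3 replicate 1, 2 or 3 (0.0724, 0.0764 and 0.0666) and in limma-voom (0.0713). Anxa10, an annexin of gastric epithelium, was at 2.10, 27.1 and 4.67 CPM against 0.0674, 0.0643 and 0.177 CPM (adjusted p = 0.0158). Met3 replicate 2 held most of the Anxa10 signal, and the call ended without it (0.0538), without Primary3 replicate 1, 2 or 3 (0.0571, 0.0618 and 0.0563), with the covariate (0.0549) and in limma-voom (0.0961).

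**Figure D2:**
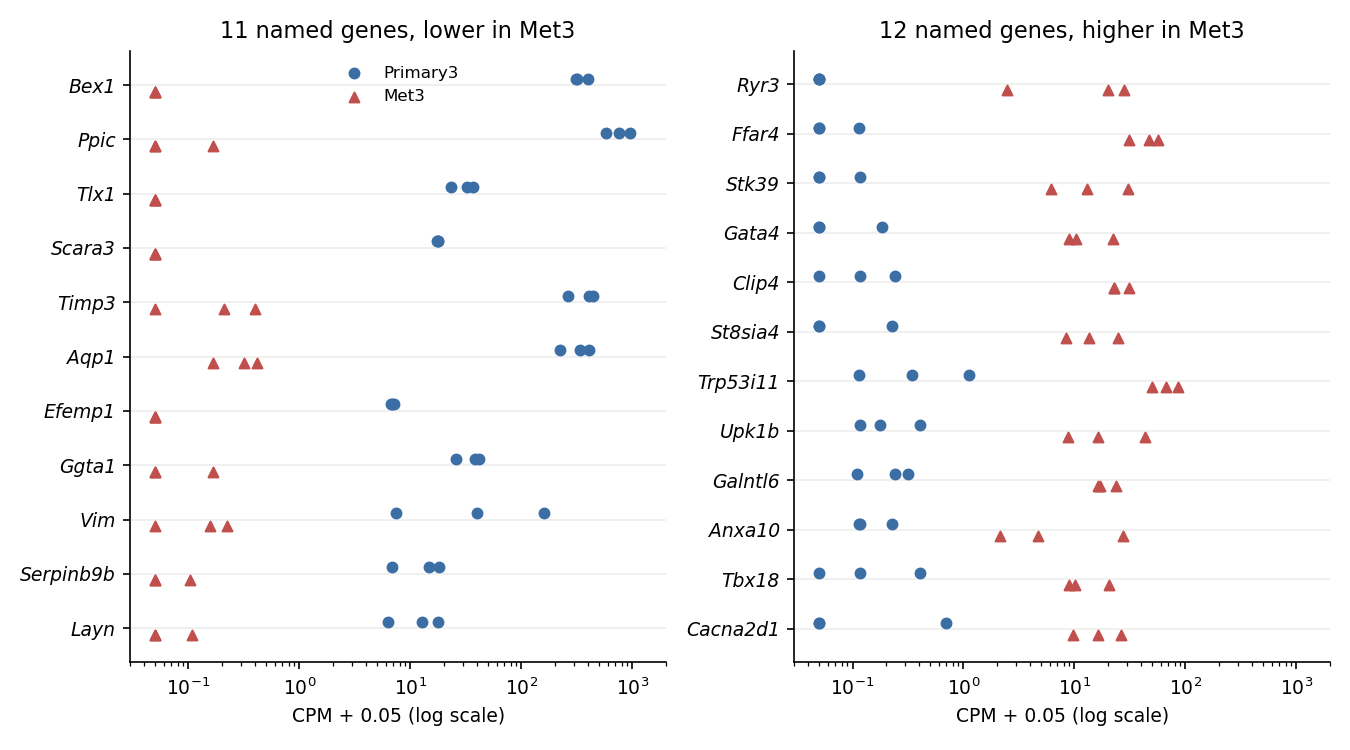
CPM plus 0.05, on a log axis, for 11 of the 12 genes with the strongest falls (left) and the 12 with the strongest rises (right) among called genes with a mean of at least 3 CPM. Blue circles are the 3 Primary3 libraries and red triangles the 3 Met3 libraries, and points at 0.05 have 0 counts. Vim spreads widest among the Primary3 libraries on the left, and Ryr3 and Anxa10 spread widest among the Met3 libraries on the right.

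Among genes with a mean of at least 100 CPM, the 8 strongest falls included, beside Bex1, Ppic, Timp3 and Aqp1, the Wnt antagonist Dkk2. Dkk2 was at 1.02, 1.67 and 13.7 CPM in Met3 and at 205, 236 and 346 CPM in Primary3 (log2 change -5.57, SE 1.46, adjusted p = 0.0202). Its call ended without Met3 replicate 1 (0.0757), Met3 replicate 2 (0.0706) or Primary3 replicate 3 (0.0529) and with the covariate (0.0524). Serpinb7, a serine protease inhibitor, was at 2.75, 13.6 and 15.3 CPM against 288, 234 and 349 CPM (adjusted p = 0.00741). Tmem176b, a membrane protein, was at 35.5, 6.23 and 21.1 CPM against 346, 373 and 475 CPM (adjusted p = 0.00865). The rule that picked these 3 genes required groups that did not overlap, so their separation is no further result.

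The abundant rises were led by Agr2, a disulfide isomerase that goblet cells need to make mucin. Agr2 was at 307, 154 and 301 CPM in Met3 and at 7.62, 14.6 and 5.596 CPM in Primary3 (log2 change 4.78, SE 0.80, adjusted p = 0.00257). Krt79, a keratin of skin appendages, was at 467, 411 and 540 CPM against 38.4, 34.8 and 26.1 CPM (adjusted p = 0.00712). Areg, the EGF receptor ligand amphiregulin, was at 323, 465 and 197 CPM against 15.6, 50.6 and 36.6 CPM (log2 change 3.26, SE 0.50, adjusted p = 0.00179). Tspan1, a tetraspanin, was at 324, 337 and 311 CPM against 65.4, 65.2 and 50.8 CPM (adjusted p = 0.00203). Ly6g, of a family of similar surface proteins, was at 1032, 599.9 and 528 CPM against 80.0, 239.9 and 113 CPM (adjusted p = 0.00622). Txnip, an inhibitor of thioredoxin that responds to glucose, was at 415, 294 and 127 CPM against 49.9, 50.3 and 67.3 CPM (adjusted p = 0.00112). Mt2, a metallothionein, was at 163, 97.8 and 309.8 CPM against 27.8, 29.1 and 28.6 CPM (adjusted p = 0.00497, but 0.0790 with the covariate). Bcas1, at 199.8, 248.6 and 268 CPM against 32.7, 38.3 and 21.9 CPM (adjusted p = 0.0238), kept no call without Met3 replicate 2 (0.0520), without Primary3 replicate 1, 2 or 3 (0.0678, 0.0631 and 0.0946) or with the covariate (0.115). The rule that picked these abundant rises required groups that did not overlap. In all of them but Txnip the lowest Met3 value was at least 2-fold above the highest Primary3 value.

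**Figure D3:**
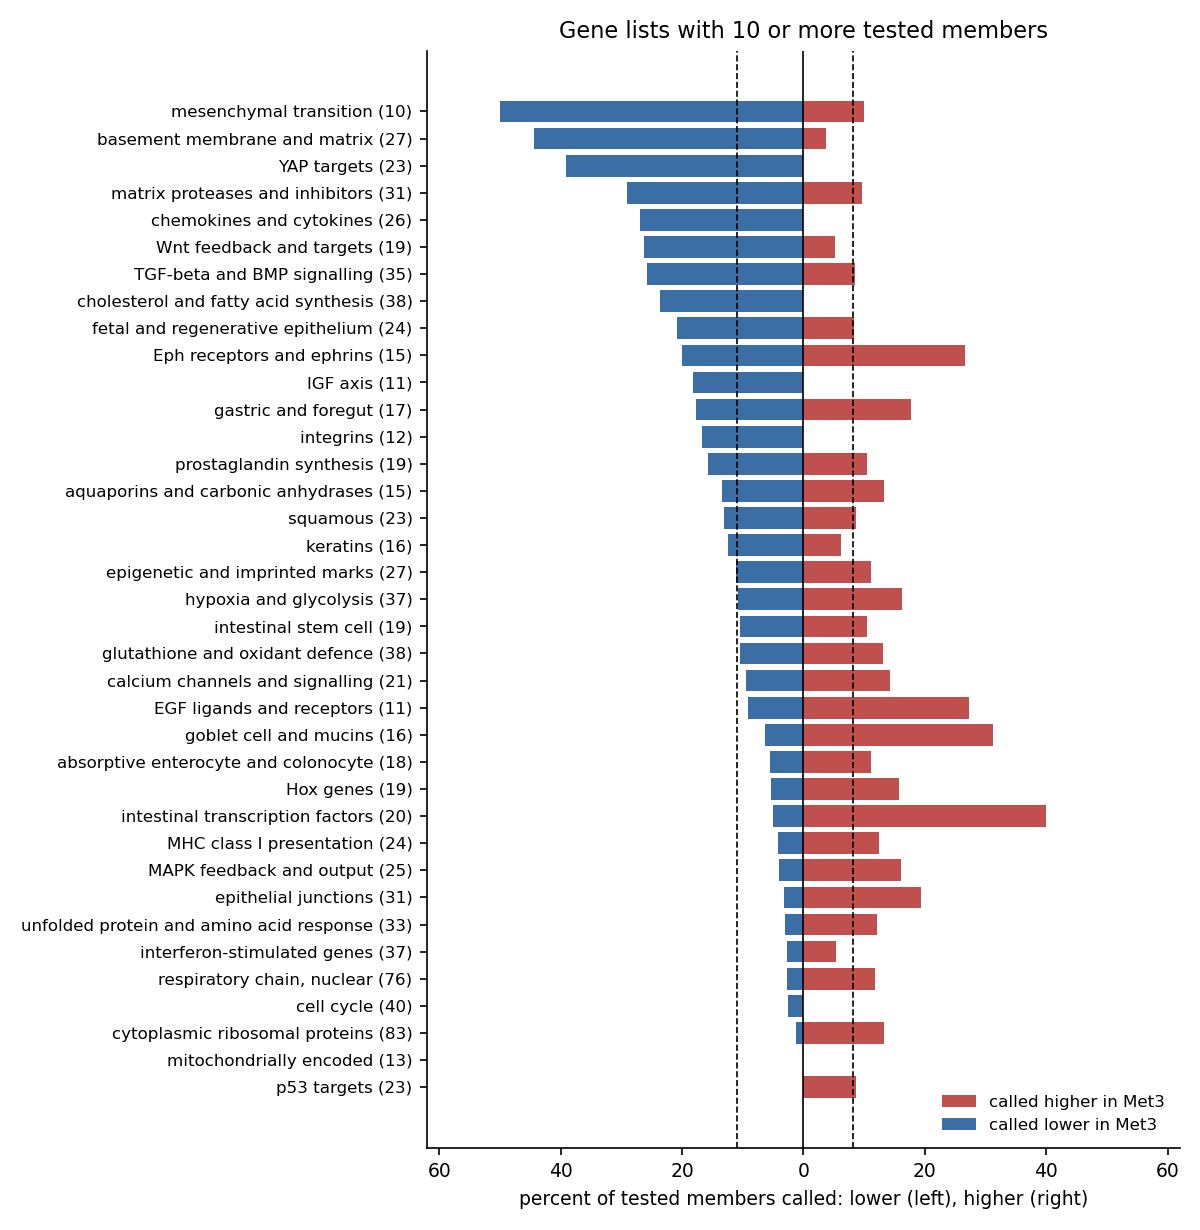
Percent of tested members called lower (blue, left) or higher (red, right) in Met3 for each gene list with 10 or more tested members, whose number stands in brackets. The dashed lines mark the shares over all genes tested, 11.0% lower and 8.12% higher. Mesenchymal, matrix and YAP target genes reach furthest to the left, and intestinal transcription factors and goblet genes furthest to the right.

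Of 25 intestinal transcription factors listed, 20 passed the filter, 8 rose (40% against 8.12% of all genes) and 1, Gata6, fell. The list's median change was 0.45 on the log2 scale. Foxa1, a pioneer factor of endoderm, was at 118, 147 and 124 CPM in Met3 and at 56.3, 66.4 and 58.5 CPM in Primary3 (log2 change 1.10, SE 0.14, adjusted p = 0.000738). Cdx2, which specifies intestine against stomach, was at 98.3, 69.2 and 73.6 CPM against 30.1, 18.5 and 21.9 CPM (log2 change 1.78, SE 0.26, adjusted p = 0.00134). Klf5, a factor of crypt proliferation, was at 112, 149 and 86.0 CPM against 58.2, 53.1 and 56.5 CPM (adjusted p = 0.00687). Hnf4g, a partner of HNF4A in enterocytes, was at 6.14, 5.597 and 2.88 CPM against 0.0674, 0.129 and 0 CPM (adjusted p = 0.00756). Of the list's 9 calls, 6 held in each of the 6 fits with a library left out. Hnf4a itself, at 8.14, 16.9 and 4.61 CPM against 27.1, 29.8 and 31.4 CPM, was not called (adjusted p = 0.245), although its groups did not overlap.

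Of 25 goblet cell and mucin genes listed, 16 passed the filter, with a median change of 1.45. Of these, 5 rose (31.2%, beside 8.12% of all genes) and 1 fell (6.25%, beside 11.0%). The rises were Agr2, Bcas1, Fut2, Fcgbp and Clca1. Fut2, a fucosyltransferase of mucosal surfaces, was at 99.1, 57.6 and 90.6 CPM in Met3 and at 22.4, 39.3 and 24.8 CPM in Primary3 (log2 change 1.51, SE 0.24, adjusted p = 0.00222). The gene that fell was Muc1, a cell surface mucin, at 3.45, 0.577 and 0.996 CPM against 19.07, 26.9 and 14.96 CPM (log2 change -3.59, SE 0.71, adjusted p = 0.00557). Fcgbp and Clca1, 2 secreted goblet cell proteins, were not called without Primary3 replicate 1 (0.0637 and 0.0921), 2 (0.0943 and 0.107) or 3 (0.124 and 0.128), nor without Met3 replicate 1 (0.0877 and 0.0513) or 2 (0.0761 and 0.118). Clca1 was also not called without Met3 replicate 3 (0.0619).

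Other lineages were tested as well. Of 35 absorptive genes 18 passed the filter, 2 rose and 1 fell, and the rise with the smallest p was that of Dgat2, an enzyme of triglyceride synthesis, at 21.0, 10.4 and 16.1 CPM against 4.45, 1.99 and 4.71 CPM (adjusted p = 0.0106). Of 26 enteroendocrine genes only Cpe, a prohormone-processing enzyme, passed the filter, at 2.48, 7.91 and 6.97 CPM in Met3 and 62.5, 82.0 and 146 CPM in Primary3 (adjusted p = 0.0115, but 0.0536 without Met3 replicate 1 and 0.0513 with the covariate). Of 17 tuft cell genes 5 passed and 1 fell, Ptgs1, the constitutive cyclooxygenase, at 19.99, 64.7 and 33.9 CPM against 269, 259 and 234 CPM (adjusted p = 0.00172). Of 32 gastric genes 17 passed, 3 rose and 3 fell. Vsig1, an adhesion protein of the stomach, was at 12.4, 37.9 and 9.91 CPM in Met3 against 0.472, 0.129 and 0.530 CPM (adjusted p = 0.00571, and 0.0808 in limma-voom), and Sox21, a foregut SOX factor, at 67.8, 72.6 and 60.7 CPM against 27.7, 20.8 and 28.3 CPM (adjusted p = 0.0013). Ctse, a gastric and fetal intestinal protease, went the other way, at 0, 0.0577 and 0.577 CPM against 5.19, 12.02 and 20.9 CPM (adjusted p = 0.00491, and 0.104 in limma-voom). Of 32 squamous genes 23 passed, with 2 rises and 3 falls. Dsg3, a desmosomal cadherin of stratified epithelium, was at 10.4, 10.3 and 12.6 CPM against 75.1, 79.7 and 109 CPM (adjusted p = 0.00779), and Krt17 at 0, 0.115 and 0 CPM against 16.2, 6.81 and 2.36 CPM (adjusted p = 0.00799). Rises and falls made up 17.6% each of the tested gastric genes, and 8.7% and 13% of the tested squamous genes. They made up 11.1% and 5.56% of the tested absorptive genes, and 0% and 20% of the tested tuft cell genes. Over all genes the shares were 8.12% and 11.0%.

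YAP and TAZ are coactivators that bind TEAD factors and switch on genes when cells spread, are stretched or lose the Hippo brake. Of 24 YAP target genes listed, 23 passed the filter, 9 fell (39.1% against 11.0% of all genes) and 0 rose, with a median change of -0.72. The 5 promoters printed here are those of the 4 targets with the smallest p and of Bex1, which had 0 counts in Met3. Each runs from 250 bases before the RefSeq start (GRCm38.p6) to 50 bases after it, 5′ to 3′ on the strand of the gene, with the TEAD core motif GGAATG, or CATTCC where it lies on the other strand, in capitals.
Ankrd1 (chr19:36119795-36120094, minus strand): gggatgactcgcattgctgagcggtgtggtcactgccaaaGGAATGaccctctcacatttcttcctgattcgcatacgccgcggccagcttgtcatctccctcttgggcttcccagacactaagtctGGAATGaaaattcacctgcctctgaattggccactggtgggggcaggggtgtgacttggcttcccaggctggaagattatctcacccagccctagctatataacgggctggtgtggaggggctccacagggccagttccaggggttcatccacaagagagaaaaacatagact
Crim1 (chr17:78199998-78200297, plus strand): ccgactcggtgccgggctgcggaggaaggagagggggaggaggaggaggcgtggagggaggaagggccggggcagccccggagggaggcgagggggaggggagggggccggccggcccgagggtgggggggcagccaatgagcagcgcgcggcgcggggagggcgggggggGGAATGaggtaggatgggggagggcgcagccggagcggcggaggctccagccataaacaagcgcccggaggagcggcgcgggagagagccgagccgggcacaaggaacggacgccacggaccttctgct
Ccn1 (chr3:145649936-145650235, minus strand): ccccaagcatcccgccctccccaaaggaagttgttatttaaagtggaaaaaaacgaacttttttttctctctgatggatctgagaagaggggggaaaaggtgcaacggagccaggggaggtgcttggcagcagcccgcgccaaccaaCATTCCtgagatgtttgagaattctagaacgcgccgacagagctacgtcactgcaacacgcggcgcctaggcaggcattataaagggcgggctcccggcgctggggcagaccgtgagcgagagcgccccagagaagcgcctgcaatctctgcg
Axl (chr7:25788684-25788983, minus strand): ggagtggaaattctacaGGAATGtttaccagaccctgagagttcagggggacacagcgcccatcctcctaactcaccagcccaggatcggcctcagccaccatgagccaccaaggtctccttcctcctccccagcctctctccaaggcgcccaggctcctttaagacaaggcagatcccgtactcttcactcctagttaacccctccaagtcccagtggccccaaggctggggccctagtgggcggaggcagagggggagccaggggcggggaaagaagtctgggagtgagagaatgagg
Bex1 (chrX:136215464-136215763, minus strand): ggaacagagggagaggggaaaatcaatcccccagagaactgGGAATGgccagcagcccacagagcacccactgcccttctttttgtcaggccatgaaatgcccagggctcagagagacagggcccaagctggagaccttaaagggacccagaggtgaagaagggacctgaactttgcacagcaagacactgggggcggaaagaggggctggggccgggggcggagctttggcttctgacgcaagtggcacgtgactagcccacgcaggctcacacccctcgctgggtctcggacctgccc

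The motif starts 210 and 123 bases before the start in Ankrd1, 79 in Crim1, 103 in Ccn1 (on the other strand), 233 in Axl and 209 in Bex1. It occurred on either strand in 14.7% of the 32851 promoter windows in the RefSeq table, in 16.3% of the genes called lower that have an entry and in 15.5% of those called higher. Of the 9 YAP targets that fell, 8 had an entry and 5 of these held the motif, against 3 of the 10 that were tested, not called and in the table. A match is a description of these letters and no evidence of binding.

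Ankrd1, a nuclear ankyrin repeat protein and classical YAP target, was at 0.108, 1.21 and 0.577 CPM in Met3 and at 75.8, 175 and 201 CPM in Primary3 (log2 change -7.90, SE 1.03, adjusted p = 0.000738). Crim1, a transmembrane protein that binds BMPs, was at 13.5, 17.8 and 18.4 CPM against 36.3, 33.99 and 33.1 CPM (log2 change -1.05, SE 0.19, adjusted p = 0.00401). Ccn1, a secreted matricellular protein, was at 3.72, 5.71 and 2.57 CPM against 28.9, 33.8 and 34.6 CPM (log2 change -3.02, SE 0.63, adjusted p = 0.00745). Axl, a receptor tyrosine kinase, was at 0, 0.0577 and 0 CPM against 3.03, 1.99 and 18.5 CPM (adjusted p = 0.0106), with Primary3 replicate 3 far above the others. Ccn2, the connective tissue growth factor, singled out here after its values were seen, was at 18.1, 21.9 and 16.3 CPM against 79.5, 197 and 146 CPM (adjusted p = 0.011, and 0.0795 with the covariate). In each of these 5 genes the highest Met3 library lay below the lowest Primary3 library. The groups did not overlap for 2819 of the 2850 called genes, so this separation is no further result. Of the 9 calls, 5 held in each fit with a library left out.

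Fetal and regenerative epithelial genes, which mark repair of the injured gut, gave 5 falls and 2 rises among 24 tested. These were 20.8% and 8.33%, beside 11.0% and 8.12% over all genes. Spp1, the secreted phosphoprotein osteopontin, was at 91.4, 108 and 84.8 CPM in Met3 and at 1006, 1575 and 2002 CPM in Primary3 (log2 change -4.01, SE 0.43, adjusted p = 0.000262). Clu, the chaperone clusterin that marks revival stem cells, was at 29.5, 31.2 and 21.1 CPM against 386, 551 and 411 CPM (log2 change -4.04, SE 0.56, adjusted p = 0.00114). Basp1, a membrane-bound signalling protein, was at 0.754, 2.31 and 0.996 CPM against 97.6, 161 and 144 CPM (adjusted p = 0.00167). The 3 calls held in every alternative, whereas Anxa1, Ly6a and Emp1 of the same list were not called (adjusted p of 0.96, 0.19 and 0.95).

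Of 22 Wnt feedback and target genes 19 passed the filter, 5 fell (26.3%) and 1 rose, with a median change of -0.57. Fzd6, a Wnt receptor, was at 24.6, 24.1 and 22.1 CPM in Met3 and at 41.5, 46.5 and 39.5 CPM in Primary3 (log2 change -0.85, SE 0.18, adjusted p = 0.00722), the sole call of the 6 that held with each library left out. Dkk3, a secreted Dickkopf protein, had 0 counts in Met3 against 2.90, 2.63 and 9.90 CPM, at least 97.5-fold lower (adjusted p = 0.0173, but 0.0548 without Met3 replicate 1, 0.0504 without Primary3 replicate 3 and 0.0545 with the covariate). The core feedback gene Axin2, at 85.9, 107 and 112 CPM against 104.5, 105.5 and 95.3 CPM, was not called (adjusted p = 0.994). Of 23 stem cell genes 19 passed, 2 rose and 2 fell, shares of 10.5% each beside 8.12% and 11.0% over all genes. Lgr5, the crypt base stem cell marker, was at 30.7, 38.9 and 22.5 CPM against 13.6, 14.0 and 12.3 CPM, a log2 difference of 1.21 (SE 0.45) that missed the threshold (adjusted p = 0.0759). Ephb2, a Wnt-driven receptor that positions crypt cells, was at 113, 80.5 and 91.1 CPM against 10.2, 14.6 and 9.72 CPM (log2 change 3.04, SE 0.86, adjusted p = 0.0278). The Ephb2 call ended without Met3 replicate 1 or 2 (0.0685 and 0.0510), without Primary3 replicate 1, 2 or 3 (0.0841, 0.0706 and 0.101), in limma-voom (0.0762) and with the covariate (0.0984).

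Of 40 basement membrane and matrix genes listed, 27 passed the filter, with a median change of -1.01. Of these, 12 fell (44.4%, beside 11.0% of all genes), 1 rose (3.7%, beside 8.12%) and 14 were not called. Col4a1 and Col4a2, neighbouring genes for the chains of type IV collagen, moved together: Col4a1 was at 26.8, 54.8 and 67.1 CPM in Met3 against 263, 223 and 244 CPM (log2 change -2.29, SE 0.38, adjusted p = 0.0026). Col4a2 was at 26.3, 57.0 and 69.8 CPM against 247, 241 and 247 CPM (log2 change -2.27, SE 0.41, adjusted p = 0.00355). Hspg2, the basement membrane proteoglycan perlecan, was at 5.44, 7.16 and 2.94 CPM against 31.9, 28.2 and 42.9 CPM (adjusted p = 0.00472). Efemp1, given above, belongs to this list too. The gene that rose was Fbln5, an elastic fibre protein, at 31.1, 25.7 and 25.8 CPM against 0.809, 1.99 and 1.41 CPM (log2 change 4.28, SE 1.14, adjusted p = 0.0215). The Fbln5 call ended without Met3 replicate 1 (0.0529) and without Primary3 replicate 1, 2 or 3 (0.0746, 0.0594 and 0.0801), and 4 of the list's 13 calls held in all 6 such fits.

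Mesenchymal genes were scarce in these epithelial organoids, and 10 of 19 listed passed the filter. Of these, 5 fell (50%, beside 11.0% of all genes) and 1 rose (10%, beside 8.12%). Cald1, an actin-binding protein, was at 3.77, 1.90 and 1.10 CPM in Met3 against 41.9, 32.6 and 68.5 CPM (log2 change -4.39, SE 0.76, adjusted p = 0.00298). Foxc2, a forkhead factor, had 0 counts in Met3 and 2.70, 2.25 and 2.47 CPM in Primary3 (adjusted p = 0.011). The gene that rose was Twist1, a transcription factor known for driving mesenchymal change, at 46.4, 61.7 and 45.6 CPM against 0.270, 0 and 8.89 CPM (log2 change 4.04, SE 1.13, adjusted p = 0.0266). The Twist1 call ended without Met3 replicate 1 or 2 (0.0545 and 0.0595), without Primary3 replicate 1 or 2 (0.0762 and 0.0651) and with the covariate (0.151). Twist1 and Vim therefore stood on opposite sides, Twist1 high and Vim near 0 in each Met3 library.

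Matrix proteases and their inhibitors gave 9 falls (29%) and 3 rises (9.68%) among 31 tested, beside 11.0% and 8.12% over all genes. Beside Timp3, the inhibitor Timp1 was at 4.74, 5.37 and 8.23 CPM in Met3 against 31.8, 22.8 and 43.1 CPM (log2 change -2.41, SE 0.36, adjusted p = 0.00161). The membrane serine proteases Tmprss4 (183, 172 and 166 CPM against 51.1, 58.2 and 44.5 CPM, adjusted p = 0.000814) and St14, or matriptase (172, 172 and 176 CPM against 88.2, 102 and 82.1 CPM, adjusted p = 0.00175), rose. Among 12 integrin genes tested, Itgb1, the common beta-1 chain, fell from 930.3, 1167 and 1319 CPM in Primary3 to 298, 476 and 463 CPM in Met3 (log2 change -1.47, SE 0.22, adjusted p = 0.00161). Itgb6, the epithelial beta-6 chain, was at 9.16, 9.46 and 6.66 CPM against 26.4, 27.5 and 30.6 CPM (log2 change -1.74, SE 0.22, adjusted p = 0.000629). Of the 12 integrin genes 2 fell (16.7%) and 0 rose, beside 11.0% and 8.12% over all genes. With so few genes these counts are no result about the family.

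Of 31 epithelial junction genes tested, 6 rose (19.4%, beside 8.12% of all genes), 1 fell (3.23%, beside 11.0%) and 24 were not called. The median change was 0.40, and 4 of the 7 calls held in each fit with a library left out. Cldn3, a tight junction claudin, was at 367, 326 and 313 CPM in Met3 against 137, 204 and 162 CPM (log2 change 0.9987, SE 0.17, adjusted p = 0.00252). Dsp, the desmosomal plaque protein desmoplakin, was at 354, 427 and 302 CPM against 149, 171 and 159 CPM (log2 change 1.18, SE 0.24, adjusted p = 0.00658), and Ocln, or occludin, at 76.5, 74.7 and 57.9 CPM against 41.9, 40.5 and 41.2 CPM (adjusted p = 0.0114). Cldn2, the pore-forming claudin of crypts, fell to 1.13, 6.001 and 2.25 CPM from 104, 160 and 94.4 CPM (log2 change -5.26, SE 1.02, adjusted p = 0.00535). Cdh1, which encodes E-cadherin, was at 339, 395 and 324 CPM against 432, 448 and 451 CPM and was not called (adjusted p = 0.343). Among 16 keratin genes tested, Krt8 of simple epithelium rose, at 3693, 4269 and 3066 CPM against 1028, 1133 and 1160 CPM (log2 change 1.73, SE 0.43, adjusted p = 0.0156), a call that ended without Primary3 replicate 1, 2 or 3 (0.0519, 0.0512 and 0.0538).

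TGF-beta and BMP genes gave 9 falls (25.7%) and 3 rises (8.57%) among 35 tested, beside 11.0% and 8.12% over all genes. Bambi, a decoy receptor that blocks this family of ligands, was at 60.9, 83.9 and 62.1 CPM in Met3 and at 3.17, 4.30 and 4.48 CPM in Primary3 (log2 change 4.11, SE 0.35, adjusted p = 7.54e-05). The ligand Tgfb3 was at 2.59, 2.71 and 4.61 CPM against 19.6, 17.9 and 23.1 CPM (log2 change -2.61, SE 0.40, adjusted p = 0.00177), and the receptor Tgfbr2 at 53.6, 37.2 and 42.1 CPM against 126, 93.1 and 115 CPM (log2 change -1.33, SE 0.27, adjusted p = 0.00595). Inhba, a subunit of activin, was at 1.13, 2.31 and 0.996 CPM against 12.7, 13.8 and 52.6 CPM (adjusted p = 0.00952, and 0.0563 with the covariate). The decoy receptor was thus up where a ligand and a receptor were down.

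EGF family ligands split. Beside the rise of Areg, Epgn, or epigen, was at 8.57, 12.5 and 6.81 CPM in Met3 against 0.337, 0 and 0.412 CPM (adjusted p = 0.0163, but 0.0568 without Primary3 replicate 2, 0.0526 without Primary3 replicate 3 and 0.110 with the covariate). Ereg, or epiregulin, was at 0.162, 0 and 0.105 CPM against 5.93, 4.50 and 6.30 CPM (log2 change -5.84, SE 1.003, adjusted p = 0.00289). The receptor Erbb3 was at 119, 106 and 59.2 CPM against 28.6, 51.8 and 43.2 CPM (adjusted p = 0.0195), a call that ended without Met3 replicate 1 or 2 (0.0684 and 0.0589) and without Primary3 replicate 1 or 3 (0.0705 and 0.0597). In all, 3 of 11 tested genes rose (27.3%) and 1 fell (9.09%), beside 8.12% and 11.0% over all genes. Among 25 MAPK output genes 4 rose (16%) and 1 fell (4%). The fall, Ier3, an immediate early survival gene, was the sole call to hold with each library left out. Ier3 was at 392, 298 and 195 CPM in Met3 against 667 to 1164 CPM over the Primary3 libraries (adjusted p = 0.00566). Among 15 Eph receptors and ephrins 4 rose (26.7%) and 3 fell (20%). Ephb4 was at 10.2, 25.3 and 40.5 CPM in Met3 against 105, 103 and 100.5 CPM (log2 change -2.02, SE 0.43, adjusted p = 0.00824).

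Epithelial chemokines and cytokines gave 7 falls (26.9%) and 0 rises among 26 tested of 37 listed, beside 11.0% and 8.12% over all genes. The list's median change was -0.96. Csf2, the granulocyte-macrophage growth factor, was at 0.162, 0.115 and 0.0524 CPM in Met3 against 2.83, 12.7 and 9.66 CPM (log2 change -6.18, SE 0.89, adjusted p = 0.00134). Cxcl5, a neutrophil-attracting chemokine, was at 8.57, 25.6 and 2.04 CPM against 129, 161 and 156 CPM (log2 change -3.63, SE 0.71, adjusted p = 0.00557). Csf1, the macrophage growth factor, was at 1.13, 0.808 and 0.734 CPM against 5.93, 5.78 and 6.13 CPM (log2 change -2.73, SE 0.57, adjusted p = 0.00746). Csf1 and its receptor Csf1r were thus both lower in Met3. The part of Csf1r in the other values was not tested.

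Calls among antigen presentation and interferon genes went both ways. Of 24 MHC class I presentation genes tested, 3 rose (12.5%) and 1 fell (4.17%), beside 8.12% and 11.0% over all genes. Of 37 interferon-stimulated genes 2 rose (5.41%) and 1 fell (2.7%). B2m, the light chain of MHC class I, was at 40.0, 61.2 and 44.1 CPM in Met3 against 122, 108 and 173 CPM (log2 change -1.47, SE 0.25, adjusted p = 0.00257). The heavy chain H2-D1 was at 474, 483 and 527 CPM against 289, 288 and 310 CPM (log2 change 0.74, SE 0.14, adjusted p = 0.00469). H2-K1, at 501, 477 and 459 CPM against 416, 431 and 471 CPM, was not called (adjusted p = 0.326). The heavy chain genes are near-identical copies, and reads may be shared between them.

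Of 19 prostaglandin genes tested 2 rose and 3 fell, 10.5% and 15.8% beside 8.12% and 11.0% over all genes. Pla2g4a, the cytosolic phospholipase that frees arachidonic acid, was at 119, 130 and 126 CPM in Met3 against 40.6, 40.1 and 40.8 CPM (log2 change 1.63, SE 0.29, adjusted p = 0.00333). Ptges, the terminal PGE2 synthase, was at 176, 176 and 167 CPM against 7.28, 16.8 and 19.3 CPM (log2 change 3.58, SE 0.63, adjusted p = 0.00327). Ptgs1, given above, and Hpgd, which degrades prostaglandins, fell, the latter to 2.64, 2.54 and 2.94 CPM from 26.1, 22.4 and 32.4 CPM (log2 change -3.31, SE 0.50, adjusted p = 0.00172).

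Cholesterol and fatty acid genes gave 9 falls (23.7%) and 0 rises among 38 tested, beside 11.0% and 8.12% over all genes. The median change was -0.18, and 8 of the 9 calls held with each library left out. Scd1, the desaturase that makes oleate, was at 28.6, 15.1 and 27.9 CPM in Met3 against 115, 109.9 and 125 CPM (log2 change -2.29, SE 0.34, adjusted p = 0.00161). Fads2, a desaturase of polyunsaturated fatty acids, was at 0.323, 2.42 and 9.07 CPM against 147, 119 and 119 CPM (log2 change -5.01, SE 0.88, adjusted p = 0.0032). Me1, which supplies NADPH for lipid synthesis, was at 54.8, 86.2 and 80.1 CPM against 181, 208 and 289 CPM (adjusted p = 0.00303), and Acat2, of the first step of sterol synthesis, at 140, 151 and 156 CPM against 266, 263 and 279 CPM (adjusted p = 0.00289). Among these 4 genes the fall was larger in the desaturases than in the other enzymes.

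Glycolysis and hypoxia genes gave 6 rises (16.2%) and 4 falls among 37 tested. Pkm, the last enzyme of glycolysis, was at 6040, 6398 and 6142 CPM in Met3 against 3531, 4425 and 4056 CPM (log2 change 0.63, SE 0.12, adjusted p = 0.00564). The lactate exporter Slc16a3 was at 61.8, 89.3 and 127 CPM against 238, 454 and 400 CPM (log2 change -1.97, SE 0.38, adjusted p = 0.00525). Slc2a1, the glucose transporter GLUT1, was at 383, 428 and 309 CPM against 111, 216 and 164 CPM (adjusted p = 0.0136, and 0.0502 without Primary3 replicate 3). In the glutathione and oxidant defence list 5 of 38 tested genes rose (13.2%) and 4 fell (10.5%), beside 8.12% and 11.0% over all genes. Slc7a11, the cystine importer, was at 41.1, 64.2 and 62.3 CPM against 147, 188 and 210 CPM (log2 change -1.70, SE 0.33, adjusted p = 0.00508), and Mgst3, a microsomal glutathione transferase, at 157, 189 and 177 CPM against 79.5, 82.6 and 92.1 CPM (log2 change 1.04, SE 0.12, adjusted p = 0.000417). Slc7a11 and Mgst3 held their calls in every alternative.

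Mitochondrially encoded and cell cycle genes gave few calls, and calls in the other housekeeping groups were mostly rises. No mitochondrially encoded gene of 13 was called, and of 40 cell cycle genes 1 was, Cdkn2a, a cell cycle inhibitor locus, which fell from 424, 554 and 550 CPM in Primary3 to 174, 103 and 182 CPM in Met3 (log2 change -1.74, SE 0.30, adjusted p = 0.00296). The proliferation marker Mki67, at 319, 355 and 334 CPM against 421, 257 and 251 CPM, overlapped between the groups. Over all genes tested, 8.12% rose and 11.0% fell. Cytoplasmic ribosomal protein genes gave 11 rises (13.3%) and 1 fall (1.2%) among 83 tested. The largest rise was that of Rps25, at 0.65 on the log2 scale. Nuclear genes of the respiratory chain gave 9 rises (11.8%) and 2 falls (2.63%) among 76. With each library left out, 2 of the 12 ribosomal protein calls and 2 of the 11 respiratory chain calls held. Of 23 p53 target genes 2 rose (8.7%), and neither held with each library left out. Of 33 genes of the unfolded protein and amino acid responses 4 rose (12.1%) and 1 fell (3.03%).

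Of 39 Hox genes listed 19 passed the filter, 3 rose (15.8%, beside 8.12% of all genes), 1 fell (5.26%, beside 11.0%) and 15 were not called, and the median change was -0.58. Hoxa2 was at 5.12, 5.19 and 6.71 CPM in Met3 against 1.75, 1.41 and 1.06 CPM (log2 change 2.01, SE 0.37, adjusted p = 0.00416), and Hoxa4 at 2.96, 2.77 and 3.09 CPM against 0.741, 0.386 and 0.412 CPM (log2 change 2.51, SE 0.48, adjusted p = 0.00508). Hoxb13, the most posterior Hoxb gene, was at 10.8, 13.3 and 20.8 CPM against 56.8, 48.5 and 58.9 CPM (log2 change -1.87, SE 0.35, adjusted p = 0.00464). The third rise, Hoxa3, was at 13.4, 10.7 and 13.7 CPM against 4.45, 5.14 and 5.48 CPM (adjusted p = 0.0293). The Hoxa3 call ended without Met3 replicate 1 or 3 (0.0753 and 0.0675), without Primary3 replicate 1, 2 or 3 (0.0881, 0.0793 and 0.0784), with the covariate (0.0999) and in limma-voom (0.055). Tet2, a dioxygenase that oxidises methylcytosine, was at 24.9, 20.7 and 21.0 CPM against 7.35, 10.9 and 11.3 CPM (log2 change 1.17, SE 0.21, adjusted p = 0.00386).

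Some genes had counts in 1 group alone. In Met3, 37 genes had 0 counts in all 3 libraries and a mean of at least 1 CPM in Primary3, and 29 of them were called. Besides Bex1, Tlx1, Scara3 and Efemp1 these included Col4a3 and Col4a4, a divergent pair of type IV collagen genes named here after their values were seen. Col4a4 was at 3.91, 6.30 and 6.95 CPM in Primary3, at least 106-fold lower in Met3, and Col4a3 at 2.83, 5.33 and 7.54 CPM, at least 97.9-fold lower. Of the 37, 9 had a mean of at least 1 CPM in Met1, the first-round metastasis organoids, and 3 in Met2. In Primary3, 36 genes had 0 counts and a mean of at least 1 CPM in Met3, of which 17 were called, and 17 of the 36 had at least 1 CPM in Met2 and 6 in Met1. The 36 held Adcyap1, the gene of the neuropeptide PACAP, at 8.89, 0.866 and 3.98 CPM in Met3, at least 73.6-fold higher, likewise named after its values were seen. A count of 0 in 3 libraries allows 3 counts over the group, 0.0527 CPM in Met3 and 0.0628 CPM in Primary3, for counting error only.

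The calls were spread unevenly over the chromosomes. On chromosome 18, which carries Gata6, Apc and Ppic, 30.1% of 389 tested genes fell and 2.31% rose, and on chromosome 8 28.1% of 789 fell, against 11.0% over all genes. The median log2 change was -0.38 on chromosome 18 and -0.35 on chromosome 8. Each Met3 library showed it: medians against the Primary3 mean were -0.38, -0.29 and -0.32 on chromosome 18 and -0.36, -0.38 and -0.29 on chromosome 8 for replicates 1, 2 and 3. On chromosome 1 17.9% of genes rose and the median was 0.24, with 0.17, 0.21 and 0.26 in the 3 Met3 libraries. Single Primary3 libraries differed from the mean of the other 2 by at most 0.072 (size of the median) on chromosomes 1, 8 and 18. The low-count filter at 1 CPM in 3 libraries was run as an alternative and gave the same direction for these 3 chromosomes.

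**Figure D4:**
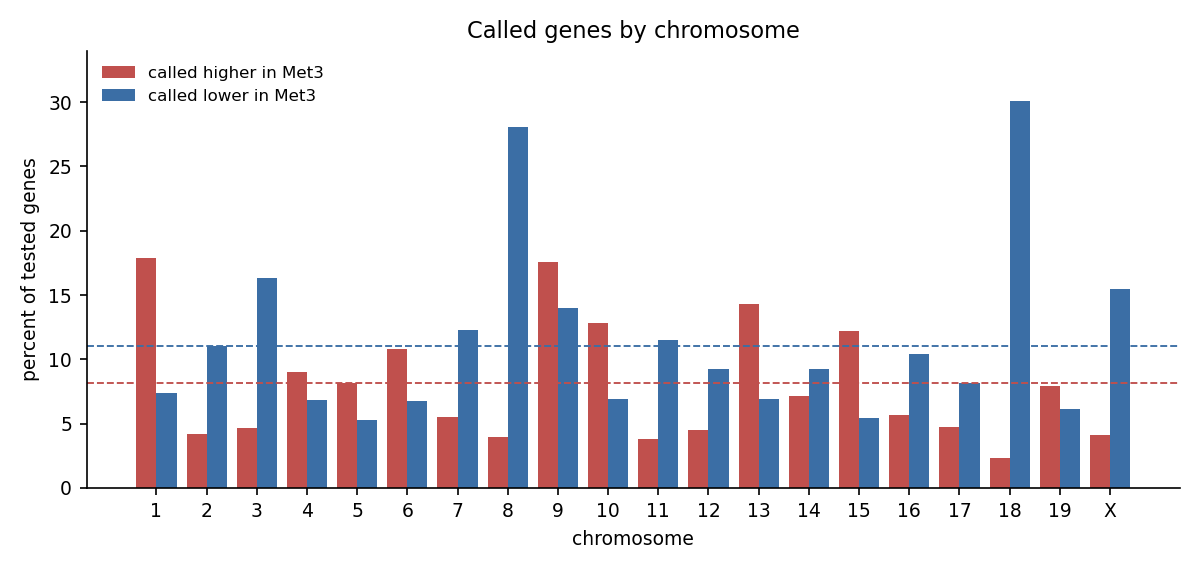
Percent of tested genes on each chromosome called higher (red) or lower (blue) in Met3, with dashed lines at 8.12% and 11.0%, the shares over all genes tested. Chromosomes 8 and 18 stand out for falls and chromosomes 1 and 9 for rises. The share of falls on chromosome 9, 14%, lies a little above its dashed line and below those of chromosomes 3 and X.

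Chromosome 9 was divided. Windows of 50 neighbouring genes gave a median change beyond 0.5 in 18 of 1398 cases, and 3 low stretches lay on chromosome 9, the first from chr9:86307306-98601660. Split at the start of that stretch, a point chosen after the values were seen, 133 of the 520 genes before it rose (25.6%) and 29 fell, while 88 of the 315 genes after it fell (27.9%) and 14 rose. Medians against the Primary3 mean were 0.25, 0.26 and 0.35 before the split and -0.39, -0.42 and -0.44 after it in Met3 replicates 1, 2 and 3. In the second round the same 315 genes had a median change of 0.20, so the direction was not shared by Met2. Of the 3 low stretches, those starting at 108808368 and 116084293 did not pass the window threshold with the filter at 1 CPM. Low stretches also covered chr8:31737208-47990924, with 26 of 70 genes lower and 0 higher, and chr18:34442351-42262194, with 24 of 80 lower.

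The highest window, with a median of 1.97, lay within chr5:91217898-103911259. Of the 90 tested genes there, 39 were predicted genes without a proper name, many of them neighbouring, similar copies. Their summed level was 1277, 311 and 373 CPM in Met3 replicates 1, 2 and 3 and 143, 145 and 121 CPM in Primary3. Replicate 1 was the highest library of Met3, and since reads can be shared among such copies the values of single members are uncertain. The other 51 genes of the stretch had a median change of 0.28, with 5 rises and 3 falls.

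The second round offered a comparison of the same kind, Met2 against Primary2, with no library in common. The rounds were successive transplantations, and both comparisons came from the same fit with a shared estimate of the spread. Calls shared by the rounds are therefore no independent replication, and carry-over from round to round was not tested. In the second round 1768 genes (11.8%) were called. In both rounds 969 genes (6.49%) were called in the same direction, 34% of the third-round calls and 54.8% of the second-round calls. Another 2 genes were called in both with opposite signs. Of the 2850 third-round calls, 2601 (91.3%) had the same sign in the second round, against 70.2% of all genes tested. Of the 12 strongest falls 11 were also called in the second round, the exception being Vim, whose log2 change there was 2.79 (adjusted p = 0.240). Of the 12 strongest rises 10 were, the exceptions being Upk1b (adjusted p = 0.0663) and Anxa10 (0.111). Gata6 and Gata4 were called in both rounds, with second-round changes of -3.49 and 5.78 on the log2 scale.

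**Figure D5:**
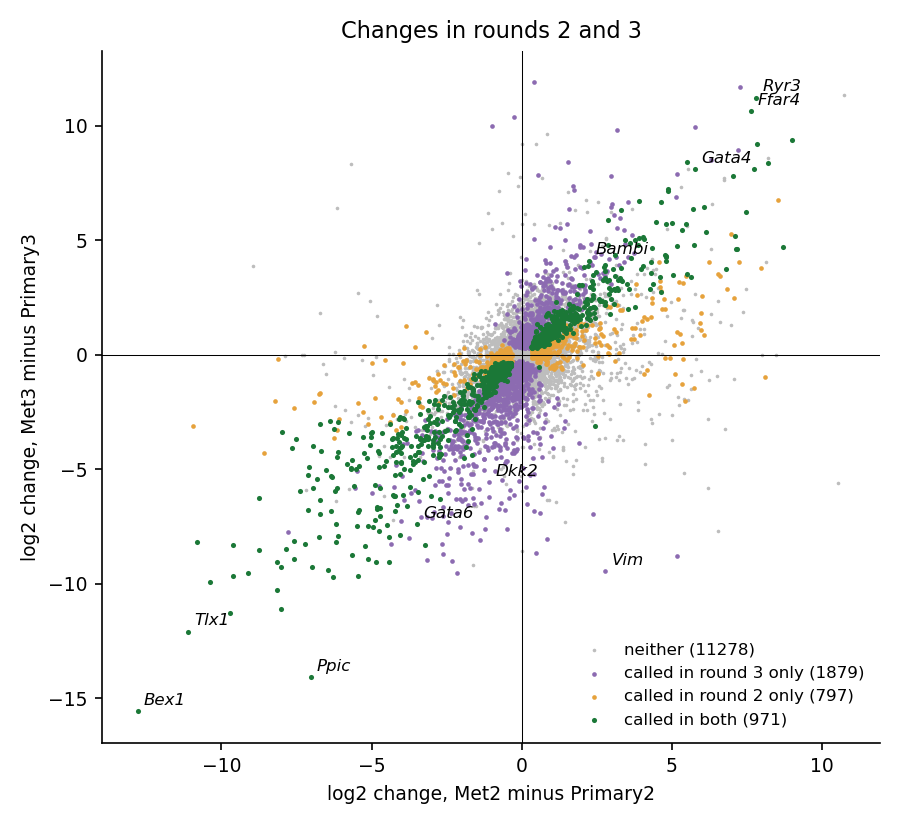
Fitted log2 change of each tested gene in the second round (horizontal) and in the third (vertical). Green points were called in both rounds (969 in the same direction and 2 in opposite directions), purple in the third alone (1879), orange in the second alone (797) and grey in neither. Vim lies at the lower right, below 0 in the third round and above 0 in the second.

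Whether the change differed between the rounds was tested directly. The difference was called for 0 genes (0%) in edgeR's quasi-likelihood test, where the smallest adjusted p was 0.0960 and 1817 genes (12.2%) had an unadjusted p below 0.05. DESeq2 called 224 genes and limma-voom 0. A call in the third round without one in the second is therefore not shown to be a difference between rounds. The second round was the more uneven: its calls numbered 2150 without Met2 replicate 1, a library that lay apart from the other Met2 libraries at 1.49 against 31.3 and 40.9 on the first principal component, and 715 without Primary2 replicate 3.

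First-round metastasis organoids had no primary group of their own round, so their levels are given as a description. The Met1 mean lay nearer to Met3 than to Primary3 for 670 of the 1212 genes that rose (55.3%) and for 784 of the 1638 that fell (47.9%), against 49.5% of all genes tested. Gata6 averaged 18.7 CPM in Met1 (SD 11.56), a mean above all Primary3 libraries, and Gata4 0.0167 CPM. Bex1 averaged 106 CPM in Met1 (SD 83.19) and 0.0447 CPM in Met2. Dkk2 averaged 210.5 CPM in Met1 (SD 82.25) and 215 CPM in Primary2 (SD 72.65). Its Met2 mean of 102 CPM had an SD of 160.2, so the Met2 libraries differed widely. Stk39, in contrast, averaged 27.2 CPM in Met1 (SD 21.1), close to its 27.8 CPM in Met2 (SD 23.99).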

How the data were processed

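RNA from AKP organoids was sequenced in 15 libraries, 3 in each of 5 groups, after poly(A) selection with a directional kit, per the labels' protocols. The authors deposited a table of estimated counts for 54418 gene IDs, all whole numbers. Salmon 1.3.0 and mm10 are named in the submitters' processing notes, and how transcripts were summed to genes is not given in the sources used here. Salmon divides reads shared by similar copies, so values of near-identical genes are uncertain. Names and coordinates came from GENCODE M21 (54166 IDs matched) and promoters from RefSeq (GRCm38.p6).

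The 14925 genes passing filterByExpr held 99.9% of counts. One model of all 5 groups was fitted with edgeR 4.0.16 (TMM scaling, quasi-likelihood test, Benjamini-Hochberg adjustment over all genes tested, R 4.3.3), so the groups shared 1 estimate of the spread. SE is the log2 change divided by the root of F. CPM scale deposited counts to the library total over the tested genes times its TMM factor. DESeq2 1.42.0, limma-voom 3.58.1, other filters, a ribosomal RNA covariate, a replicate block and left-out libraries were alternatives. The code was tested on simulated data.

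Named were Gata6, Gata4, Apc and Trp53, the 12 strongest called changes each way with a mean of at least 3 CPM and groups that did not overlap, the 8 each way with at least 100 CPM, and up to 4 members of each gene list with the smallest p, a few of which are not reported here. Any further list member named was picked with its values already seen. The members and lists were chosen with earlier results of these data known. Counts of 14122203 to 19531701 per library set the precision, and intervals cover counting error only.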

Additional observations from a re-analysis of the deposited data

How the results depend on the processing

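With the share of the ribosomal RNA gene as a covariate, 1540 genes were called in the third round (658 higher, 882 lower, 965 at least 2-fold), 112 in the second and 89 in both in the same direction. DESeq2 called 2830 genes in the second round, 224 for the difference between rounds and 1518 in both rounds. With only the groups compared in the fit, the second round gave 215 calls and both rounds 173. The cause was not tested. With 1 library left out, third-round calls ranged from 1372 to 2319, those higher from 513 to 1037, those lower from 734 to 1282 and those at least 2-fold from 862 to 1355. Second-round calls then ranged from 715 to 2150, the difference between rounds from 0 to 17 and calls in both rounds from 487 to 1463. Of the 40 genes named by the rule, 0 reversed in any alternative. The call of 7 was lost in limma-voom and of 8 with the covariate.

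Replicate numbers did not pair the samples: deviations of same-numbered Met3 and Primary3 libraries correlated at 0.0147, 0.00795 and -0.0562. With the replicate block 2710 genes were called in the third round (1151 higher, 1559 lower, 1460 at least 2-fold), 1627 in the second, 903 in both and 0 for the difference.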

Other observations

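Some genes varied widely among the Met3 libraries. Car1, a carbonic anhydrase of colonocytes, was at 402 CPM in Met3 replicate 1, 61.97 in replicate 2 and 1.78 in replicate 3. Gng11 and Gngt1, neighbouring genes for G protein gamma subunits on chromosome 6, were highest in Met3 replicate 2, at 80.2 and 64.9 CPM, and at 0 in replicate 3. Il5ra, a cytokine receptor chain, was at 43.2, 86.4 and 0.105 CPM in Met3 replicates 1, 2 and 3. Among genes with a mean of at least 5 CPM in the group, 171 of 9645 (1.77%) spread more than 4-fold over the 3 Met3 libraries, and 76 of 9815 (0.774%) over the 3 Primary3 libraries.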
